A study of Mus musculus with 19 samples.

Results

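Kinetochore and centromere genes encode the proteins that mark the centromere of each chromosome and join it to the mitotic spindle. The 41 genes described here were chosen by name as genes of the inner centromere, the kinetochore and the spindle checkpoint. A gene entered when the platform annotation gave its symbol to a spot, and no level or difference entered that rule. The list was drawn up with earlier results of these tumours known, among them that genes of mitosis stood lower after treatment. Each p-value below sets a gene's difference between groups against the spread between tumours. Because of how the list was drawn up, none of them is independent evidence. Of the 41 genes, 39 had a spot on the array, and Cenpl and Oip5 had none. All 39 passed the filter on missing spots and are 39 of the 18553 genes tested.

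The genes were followed in 19 mammary adenocarcinomas of FVB mice, 1 array per tumour. All the mice, untreated ones included, were C3(1)-Tag animals, in which a rat C3(1) promoter drives the T antigen of simian virus 40. The transgene acts in mammary epithelium, and its product binds p53 and the retinoblastoma protein. Untreated mice gave 7 tumours, and mice given carboplatin and paclitaxel gave 12, labelled as 9 non-responders (4 after 2 weeks and 5 after 3 weeks) and 3 responders (1 after 2 weeks and 2 after 3 weeks). Non-responder replicate 1 and responder replicate 3 came from 1 mouse. Doses, mouse ages and the measure of response are not stated in the labels. Each value is a log2 ratio of tumour RNA over a whole-mouse reference RNA, so 0 means equal to the reference and a difference of 1 between groups means a doubling. The direction of the ratio is likely rather than stated, because the liver gene Alb lay at a mean of -2.74 and the epithelial genes Krt18 and Epcam at 2.75 and 2.47 in untreated tumours. If the ratio ran the other way, every sign below would turn.

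A kinetochore is built in layers. Nucleosomes that hold the histone variant CENP-A define the centromere, a constitutive centromere-associated network (CCAN) sits on them through the cell cycle, and in mitosis the KMN network of the KNL1, MIS12 and NDC80 complexes is recruited and grips microtubules. The chromosomal passenger complex corrects faulty attachments, and the spindle checkpoint delays anaphase until each kinetochore is attached. Paclitaxel stabilises microtubules and is known to hold cells in mitosis through this checkpoint, while carboplatin crosslinks DNA. Many of these genes are transcribed mainly in the later part of the cell cycle. Promoters of such genes often hold short elements called CHR and CCAAT boxes.

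The promoter windows of 5 members are printed because they show these letters in genes that differ in their result after treatment. Hjurp, Cenpq and Sgo2a were lower in treated tumours, Cenpt was higher, and Bub1b did not pass. Each window runs from 250 bases before to 50 bases after the annotated start, in the direction of transcription, and comes from RefSeq (GRCm38.p6). Capitals mark the CHR letters TTTGAA and the CCAAT box on either strand (TTCAAA and ATTGG on the other strand).
Cenpq, chr17:40934525-40934824, minus strand: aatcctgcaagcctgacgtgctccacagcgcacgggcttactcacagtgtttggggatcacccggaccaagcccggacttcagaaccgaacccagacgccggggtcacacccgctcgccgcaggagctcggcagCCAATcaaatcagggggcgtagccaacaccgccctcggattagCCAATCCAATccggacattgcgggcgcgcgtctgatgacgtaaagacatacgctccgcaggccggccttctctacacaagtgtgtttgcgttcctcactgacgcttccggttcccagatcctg
Hjurp, chr1:88277530-88277829, minus strand: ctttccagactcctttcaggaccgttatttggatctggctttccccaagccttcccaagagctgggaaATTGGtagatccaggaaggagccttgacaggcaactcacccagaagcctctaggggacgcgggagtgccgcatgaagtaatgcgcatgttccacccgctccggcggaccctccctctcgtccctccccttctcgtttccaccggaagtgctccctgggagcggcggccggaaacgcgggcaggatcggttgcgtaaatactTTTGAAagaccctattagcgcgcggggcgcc
Sgo2a, chr1:57985090-57985389, plus strand: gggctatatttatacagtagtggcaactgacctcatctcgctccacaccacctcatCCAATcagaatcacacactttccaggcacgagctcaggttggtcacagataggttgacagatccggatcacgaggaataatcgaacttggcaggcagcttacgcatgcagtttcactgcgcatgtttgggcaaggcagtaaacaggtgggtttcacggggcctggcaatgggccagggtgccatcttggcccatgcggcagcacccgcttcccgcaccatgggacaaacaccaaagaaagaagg
Bub1b, chr2:118597961-118598260, plus strand: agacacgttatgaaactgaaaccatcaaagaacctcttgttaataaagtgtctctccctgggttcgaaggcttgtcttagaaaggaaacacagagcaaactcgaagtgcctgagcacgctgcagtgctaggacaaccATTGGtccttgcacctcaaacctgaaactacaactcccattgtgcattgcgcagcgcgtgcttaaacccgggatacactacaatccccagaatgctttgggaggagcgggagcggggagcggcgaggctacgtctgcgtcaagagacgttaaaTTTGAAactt
Cenpt, chr8:105851959-105852258, minus strand: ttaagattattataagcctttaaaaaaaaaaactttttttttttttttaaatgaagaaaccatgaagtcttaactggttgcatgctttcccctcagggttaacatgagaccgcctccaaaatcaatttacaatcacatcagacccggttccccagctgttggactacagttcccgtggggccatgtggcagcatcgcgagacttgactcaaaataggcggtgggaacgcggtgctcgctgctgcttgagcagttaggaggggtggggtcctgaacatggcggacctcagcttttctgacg
The Cenpq window held 3 CCAAT boxes. Hjurp and Bub1b held both elements, with the CHR letters 19 and 40 bases after the start. The printed Sgo2a window, the first of 2, held 1 CCAAT box and no CHR letters, and the Cenpt window held neither.

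A window was on hand for 33 of the 39 measured members, 38 windows in all. CCAAT in either orientation was in 26 of the 38 (68.4%), beside 37.4% of the 32851 windows in the RefSeq table. The CHR letters were in 14 of them (36.8%), beside 17.9% of all windows. Of 2 forms of the E2F element, GGCGGGAA was in 6 windows (15.8%, beside 2.19% of all) and TTTGGCGC in 0 (beside 0.514% of all). None of these motifs contains another. Among the 6 genes that were lower in treated tumours and had a window (Cenpe, Cenpi, Cenpk, Cenpq, Hjurp and Sgo2a), all 6 held CCAAT in at least 1 window and 1, Hjurp, held the CHR letters. Per gene, 22 of the 33 members with a window held CCAAT (66.7%) and 13 the CHR letters (39.4%), so the members that did not pass held them too, and Cenpk and Sgo2a had 3 and 2 windows to hold a match. A match of letters is a description of the window and not a binding site.

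In untreated tumours these genes were nearly all above the whole-mouse reference. The mean log2 ratio was above 0 for 38 of the 39, and per tumour between 35 and 39 genes were above 0. The share of all genes above 0 was not computed. The median over all measured spots of an untreated array lay between -0.056 and -0.01. The highest mean ratios were 2.79 ± 0.38 (SD, n = 7) for Sgo2a, which shields centromeric cohesin, 2.47 ± 0.40 for Nsl1, a subunit of the MIS12 complex, and 2.38 ± 0.45 for Cenpi of the CCAN. The lowest were -0.02 ± 0.38 for Zwint, which links the RZZ checkpoint complex to the kinetochore, 0.24 ± 0.42 for Spc25 of the NDC80 complex and 0.28 ± 0.14 for Cenpt, the CCAN protein that carries NDC80 complexes. Neighbours in this order lay closer than their SDs. The Zwint mean averages 3 spots that disagreed, at 1.01, -0.59 and -0.48 in untreated tumours. Dyes were not swapped, so a spot's dye effect is part of each of these ratios, and they do not rank the genes by RNA amount.

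The untreated tumours were themselves unequal. Bub1 ran from 1.14 over a median of 2.05 to 3.47, and Aurkb from 0.64 over 1.95 to 3.34, and untreated replicate 2 was highest for both. Bub3, Zwilch and Cenpt varied least, with SDs of 0.22, 0.19 and 0.14. Zwilch and Cenpt rested on 1 spot each, while Bub3 is an average of 4 spots whose own SDs ran from 0.24 to 0.98. The mean over the 39 genes lay between 1.08 and 1.53 in untreated tumours, between 0.61 and 1.42 in non-responders and between 0.73 and 1.00 in responders, so all 3 responders fell below every untreated tumour while the non-responders spread across both.

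**Figure D1:**
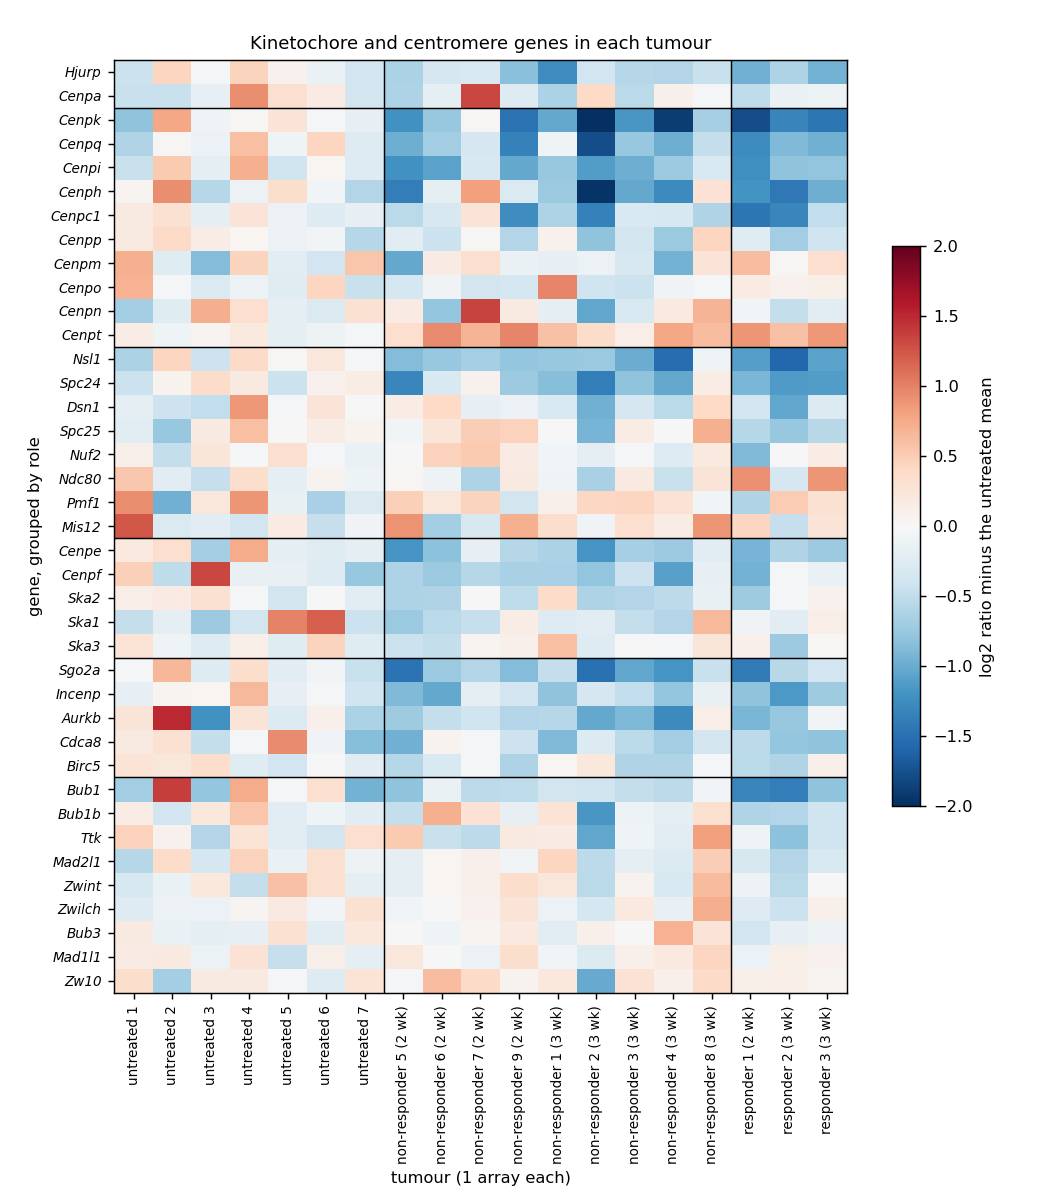
Log2 ratio of each of the 39 measured genes (rows, grouped by role, black lines between roles) in each of the 19 tumours (columns), minus the gene's mean over the 7 untreated tumours, with blue below and red above that mean. The blue cells of treated tumours gather in Hjurp, the CCAN rows from Cenpk to Cenpc1, Nsl1, Spc24, Cenpe, Sgo2a and Incenp. Cenpf and Bub1 also lie below that mean in all 12 treated tumours, and Aurkb and Cdca8 in 11, while Cenpt is red in all 12.

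Treated tumours held lower levels of some of the centromere and kinetochore genes. With limma and Benjamini-Hochberg adjustment over all genes, 9 members were lower and 1, Cenpt, was higher, which is 25.6% of the 39 beside 3.65% of all genes (1.44% lower and 2.21% higher). At an unadjusted p under 0.05, 15 members were lower and 1 higher, beside 8.45% and 11.6% of all genes. The lower genes were Cenpk, Cenpi and Cenpq of the CCAN, Nsl1 and Spc24 of the KMN network, Sgo2a and Incenp of the inner centromere, the motor gene Cenpe and the CENP-A loading factor Hjurp. The difference was negative for 30 of the 39 (76.9%, beside 47.3% of all genes), with a median of -0.22 beside 0.03 over all genes, and the median ran from -0.30 to -0.12 (without untreated replicate 4) when each tumour was left out. The count of 10 fell to 4 without untreated replicate 4 and to 4 with the most variable spot of each gene, and of the 19 fits with a tumour left out, Spc24, Cenpe and Incenp lost the call in 15, 13 and 12. In tumour pieces, fewer cells of a type and less RNA per cell cannot be told apart.

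**Figure D2:**
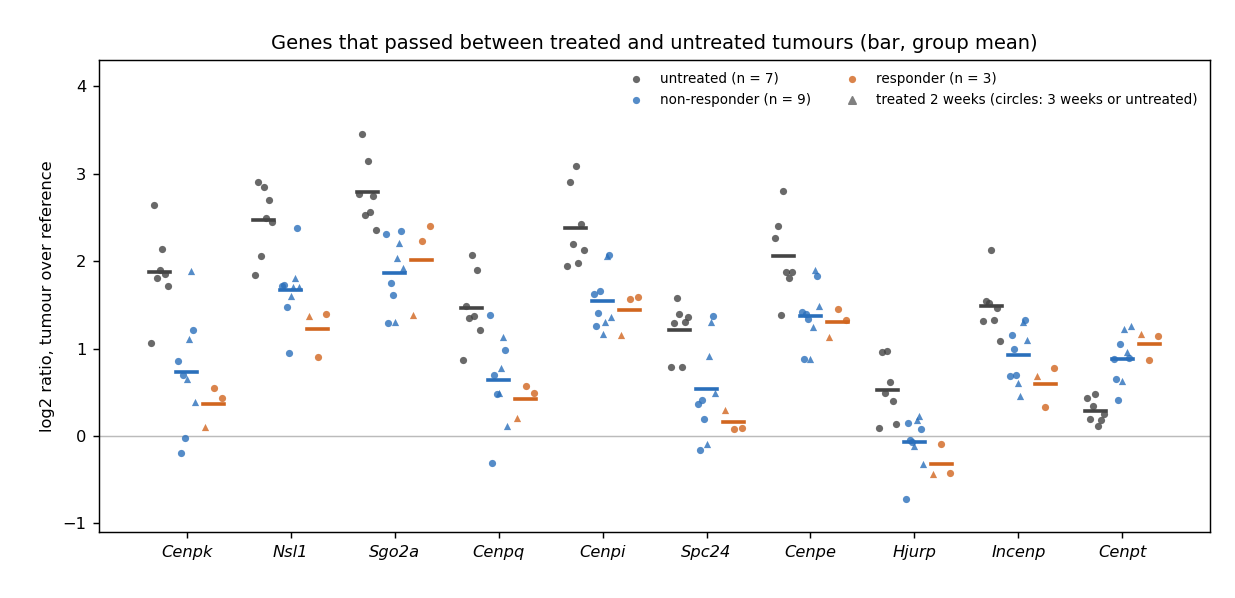
Log2 ratio over the reference of the 10 genes that passed between treated and untreated tumours, 1 point per tumour (grey untreated, blue non-responder, orange responder, triangles for tumours after 2 weeks of treatment), with a bar at each group mean. Each gene's treated and untreated points overlap in at least 1 tumour, and Cenpt is the gene whose treated points lie above the untreated mean in all 12.

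Within centromeric chromatin and its loading, 2 of the 3 listed genes were measured. Hjurp, the chaperone that deposits CENP-A, lay between 0.09 and 0.98 (median 0.50) in untreated tumours and between -0.72 and 0.23 (median -0.08) in treated ones. All 12 treated tumours were below the untreated mean, and the ranges overlapped between 0.09 and 0.23. The difference was -0.65 ± 0.16 (SE; 1.57-fold lower, limma adjusted p = 0.0323). Cenpa, the centromeric histone itself, lay between 0.85 and 2.23 in untreated and between 0.67 and 2.63 in treated tumours. Its groups overlapped throughout and the difference was -0.10 ± 0.25 (limma adjusted p = 0.872).

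The CCAN held 4 of the 10 genes that passed. Cenpk, which acts in a complex with CENP-H and CENP-I, lay between 1.07 and 2.64 (median 1.85) in untreated tumours and between -0.20 and 1.89 (median 0.60) in treated ones. Non-responder replicate 7, at 1.89, was the 1 treated tumour above the untreated mean, and non-responders 6 and 8, at 1.11 and 1.21, were above the lowest untreated one, replicate 1 at 1.07. The difference of -1.23 ± 0.25 (2.35-fold lower, limma adjusted p = 0.0146) was the largest of the 39. Cenpi lay between 1.94 and 3.09 (median 2.20) in untreated and between 1.16 and 2.07 (median 1.49) in treated tumours, a difference of -0.86 ± 0.18 (limma adjusted p = 0.0162). Cenpq, of a CCAN subcomplex that helps Plk1 and microtubules engage, lay between 0.86 and 2.07 (median 1.37) in untreated and between -0.31 and 1.38 (median 0.54) in treated tumours. Its difference was -0.88 ± 0.21 (limma adjusted p = 0.0292). For both genes all 12 treated tumours were below the untreated mean, and the ranges overlapped.

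Cenpt went the other way. It lay between 0.11 and 0.48 (median 0.25) in untreated tumours and between 0.42 and 1.26 (median 0.93) in treated ones. Untreated replicates 1 and 4, at 0.43 and 0.48, were above the lowest treated tumour, non-responder replicate 3 at 0.42, and no other pair crossed. The difference was 0.64 ± 0.13 (1.56-fold higher, limma adjusted p = 0.0146). Among the CCAN genes that did not pass, Cenph and Cenpc1, the latter a protein that binds CENP-A nucleosomes directly, had differences of -0.78 ± 0.32 and -0.69 ± 0.21 (limma adjusted p = 0.178 and 0.0693). Cenpp had -0.33, and Cenpm, Cenpn and Cenpo had -0.08, -0.04 and -0.06. The median over the 10 measured CCAN genes was -0.51.

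In the KMN network, 2 of 8 genes passed, both of them lower. Nsl1 lay between 1.84 and 2.91 (median 2.49) in untreated and between 0.90 and 2.38 (median 1.65) in treated tumours, and all 12 treated tumours were below the untreated mean. The difference was -0.91 ± 0.19 (1.88-fold lower, limma adjusted p = 0.0165). Spc24, a subunit of the NDC80 complex, lay between 0.79 and 1.58 (median 1.31) in untreated and between -0.16 and 1.37 (median 0.33) in treated tumours. Non-responder replicates 6, 7 and 8, at 0.92, 1.30 and 1.37, stood among the untreated values, and the difference was -0.78 ± 0.21 (limma adjusted p = 0.0456). The 3 other subunits of the same NDC80 complex did not pass: Ndc80 had 0.02 ± 0.22, Nuf2 0.01 ± 0.17 and Spc25 -0.07 ± 0.23. The other MIS12 complex genes were at 0.21 ± 0.25 for Mis12, -0.26 ± 0.22 for Dsn1 and 0.18 ± 0.24 for Pmf1. The median over the 8 genes was -0.03. Whether subunits of a complex differed from each other was not tested.

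Of the 5 outer kinetochore genes, Cenpe, a kinesin motor that brings chromosomes to the spindle equator, was lower by the averaged spots (1.38 to 2.80 in untreated and 0.87 to 1.90 in treated tumours, -0.70 ± 0.18, limma adjusted p = 0.0399). All 12 treated tumours were below its untreated mean, and the ranges overlapped. Cenpf, a large coiled-coil protein of the outer kinetochore, had -0.57 ± 0.23 (limma adjusted p = 0.170). The Ska complex, which couples kinetochores to shrinking microtubules, had -0.22 for Ska1, -0.32 for Ska2 and -0.07 for Ska3, and none of these passed.

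The inner centromere group had the lowest median, -0.63, with all 5 differences negative and 2 genes past the threshold. Sgo2a lay between 2.35 and 3.45 (median 2.74) in untreated and between 1.29 and 2.40 (median 1.98) in treated tumours. Only responder replicate 3, at 2.40, was above the lowest untreated tumour, replicate 7 at 2.35, and the difference was -0.89 ± 0.20 (1.85-fold lower, limma adjusted p = 0.0199). Incenp, the scaffold of the chromosomal passenger complex, lay between 1.09 and 2.13 (median 1.47) in untreated and between 0.34 and 1.33 (median 0.74) in treated tumours. All 12 treated tumours were below the untreated mean, with a difference of -0.64 ± 0.17 (limma adjusted p = 0.0390). The kinase of the same complex, Aurkb, had -0.63 ± 0.27, its subunits Cdca8 and Birc5 -0.52 ± 0.21 and -0.29 ± 0.16, and none of the 3 passed (limma adjusted p = 0.202, 0.162 and 0.325).

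None of the 9 spindle checkpoint genes passed with limma at the adjusted threshold, and 1, Bub1, had an unadjusted p under 0.05. Bub1, a checkpoint kinase that also marks the inner centromere for shugoshin, lay between 1.14 and 3.47 (median 2.05) in untreated and between 0.70 and 2.03 (median 1.56) in treated tumours. All 12 treated tumours were below the untreated mean, and the difference was -0.61 ± 0.28 (limma adjusted p = 0.227). Bub1b, Ttk and Mad2l1 had -0.17 ± 0.22, -0.16 ± 0.23 and -0.12 ± 0.18, and the other 5 genes lay between -0.02 and 0.11. The median of the group was -0.02, beside 0.03 over all genes. That median is the value of Zwint, an average of 3 spots that pointed both ways.

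**Figure D3:**
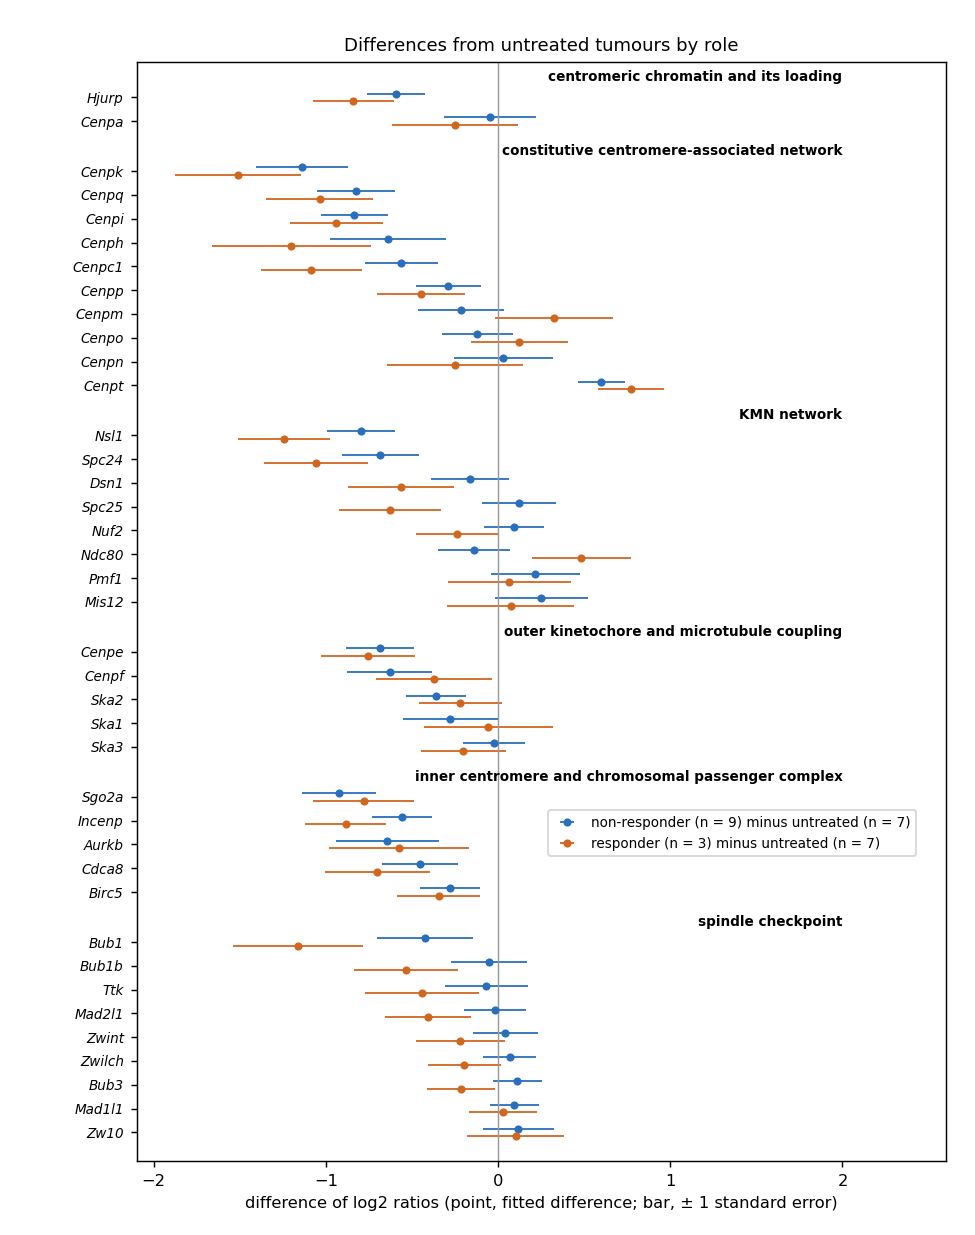
Difference of mean log2 ratio from the 7 untreated tumours for each gene, grouped by role and sorted within it, for the 9 non-responders (blue) and the 3 responders (orange), with a bar of 1 standard error to each side. The points of Cenpk reach -1.14 and -1.51, Cenpt stands at 0.60 and 0.77, and the checkpoint genes other than Bub1 lie near 0 in non-responders.

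A further 23 measured genes of the kinetochore and centromere that are not members gave a median of -0.19, with 16 of 23 negative and 0 past the limma threshold, and 7 had an unadjusted p under 0.05 (5 lower and 2 higher). The 3 with the smallest p were Sgo1, the other shugoshin (-0.90 ± 0.26, limma adjusted p = 0.0556), Cenpb, which binds centromeric satellite DNA (0.81 ± 0.25, limma adjusted p = 0.0712), and Mis18a, which licenses CENP-A loading (-0.42 ± 0.15, limma adjusted p = 0.109). Of 9 measured genes of proliferation in general, 0 passed with limma between all treated and untreated tumours and 3 had an unadjusted p under 0.05, with a median of -0.10. Top2a, the topoisomerase of dividing cells, had 0.01 ± 0.20, and Mki67, the gene of the Ki-67 proliferation marker, had -0.50 ± 0.14 (limma adjusted p = 0.0552).

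Markers of other cell types moved between the same groups. Of 8 measured macrophage markers, 4 were higher in treated tumours (Fcgr3, Fcer1g, C1qa and Lyz2, 0.82 to 1.13 higher), and their mean log2 ratio lay between 0.16 and 1.20 in untreated and between 0.68 and 2.04 in treated tumours. Endothelial markers passed in 2 of 7 (Eng and Vwf), epithelial ones in 1 of 8 (Krt14), and T cell, fibroblast, fat and skeletal muscle markers in 0. Medians were 0.71 for macrophages, 0.40 for endothelium, 0.43 for epithelium, 0.52 for T cells, 0.69 for fibroblasts, 0.32 for fat and 0.80 for muscle. The part of these in the kinetochore results was not tested.

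Where a gene had several spots, they did not always agree. Of 17 members with over 1 spot in the fit, 7 had spots on both sides of 0, and the median gap between a gene's highest and lowest spot was 0.30. The largest gap was 1.24, in Cenpo, with spots at -0.28 ± 0.32, 0.68 ± 0.46 and -0.56 ± 0.19. Cenpe had spots at -1.06 ± 0.29, 0.07 ± 0.25 and -1.12 ± 0.19, and Hjurp at -1.07 ± 0.35, -1.1 ± 0.26, -0.01 ± 0.20 and -0.44 ± 0.26, so the averages of both mix spots that differ and spots that do not. Zwint, with an average of -0.02, had spots at -0.27 ± 0.19, -0.46 ± 0.19 and 0.66 ± 0.26. Cdca8, with an average of -0.52, had spots at -1.04 ± 0.55, 0.09 ± 0.16 and -0.59 ± 0.24. The 3 Cenpk spots, at -1.29, -1.40 and -0.94, and the 2 Sgo2a spots, at -0.996 and -0.78, pointed the same way. Cenpi, Cenpq, Cenpt, Nsl1, Spc24 and Incenp rested on 1 spot each. Tested singly and adjusted over all spots, 14 of 66 member spots passed (21.2%, beside 3.66% of 32472 spots), 13 of them lower. These covered 11 lower members, Cenpc1 and Cenpf among them (spots at -0.68 and -0.71).

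**Figure D4:**
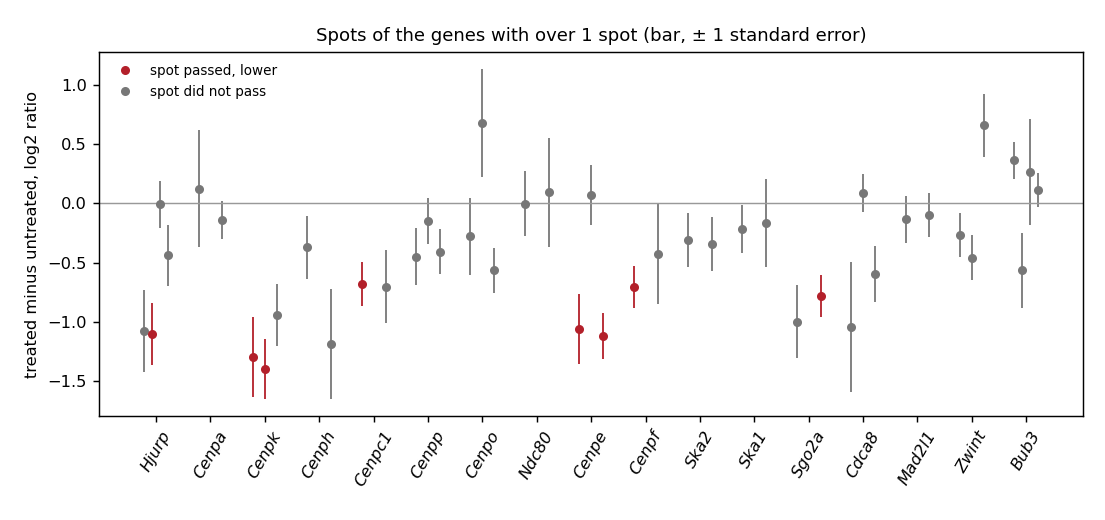
Treated minus untreated log2 ratio of each spot of the 17 genes with over 1 spot, with a bar of 1 standard error to each side, and red points for spots that passed when all spots were tested singly. The 3 spots of Cenpk are all below -0.9, while Cenpe and Hjurp each have 1 spot close to 0.

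The arrays fell into 2 styles of title, with or without a hyphen before the mouse number, and the labels do not say what this marks. The 7 hyphen arrays held 2 untreated tumours, 2 non-responders and all 3 responders, and the 12 arrays without it held 5 untreated tumours and 7 non-responders. Within hyphen arrays 32 of 39 members had negative differences after treatment, beside 45.6% of all genes, with a median of -0.37 beside 0.06 over all genes. Within the others 25 had, beside 49.4%, with a median of -0.16 beside 0.01. No member passed within either style with limma, beside 0.0105% and 1.44% of all genes, and all 10 passed with the style as a covariate. All 10 kept their direction within both styles: Cenpk had -1.51 ± 0.46 and -1.03 ± 0.28, and Cenpt 0.63 ± 0.26 and 0.65 ± 0.17. Aurkb and Bub1 had -1.54 ± 0.40 and -1.20 ± 0.56 within hyphen arrays, which include untreated replicate 2, and -0.25 ± 0.28 and -0.30 ± 0.28 within the others. The difference between the styles was not tested.

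**Figure D5:**
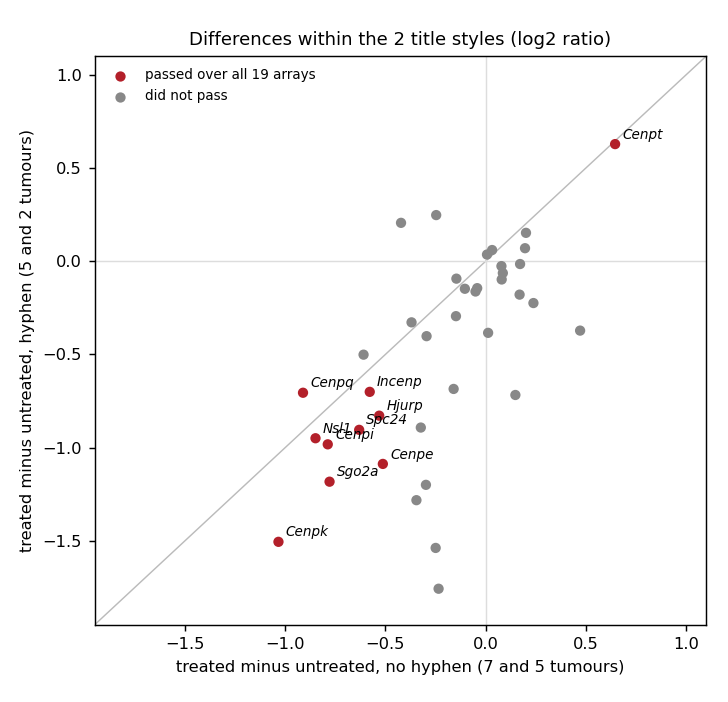
Treated minus untreated log2 ratio of each of the 39 genes within the 12 arrays without a hyphen (horizontal axis) and within the 7 hyphen arrays (vertical axis), with the line of equal values. Red points are the 10 genes that passed over all arrays, 9 of which lie below 0 on both axes and 1, Cenpt, above 0 on both.

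The non-responders were compared with untreated tumours to see which of these differences were present in tumours labelled as not responding. In limma 5 members passed, 12.8% of 39 beside 1.53% of all genes (0.647% lower and 0.879% higher): Cenpk (-1.14 ± 0.27), Sgo2a (-0.92 ± 0.21), Cenpi (-0.83 ± 0.20) and Nsl1 (-0.80 ± 0.19) were lower and Cenpt (0.60 ± 0.14) was higher, at limma adjusted p between 0.0401 and 0.0467. Sgo2a ran from 1.29 over a median of 1.92 to 2.34 in non-responders and from 2.35 upwards in untreated tumours, so all 9 lay below all 7, as was true of 0.248% of all genes on the lower side. Cenpi and Nsl1 were below the untreated mean in 9 of 9 non-responders and Cenpk in 8 of 9. The median over the 39 genes was -0.22, with 28 negative (71.8%, beside 46.5% of all genes), and it ran from -0.28 to -0.13 (without non-responder replicate 4) with a tumour left out. All 5 calls were lost with the most variable spot of each gene, and with the 5 arrays that held few exact zeros marked by a covariate, an alternative chosen after the data were seen. Leaving out 1 tumour at a time gave between 0 and 7 passing members: 0 without untreated replicate 2, 4, 5 or 6 or without non-responder replicate 4, 5, 6 or 9; 1 without responder replicate 1 or 3 or non-responder replicate 1 or 3; 2 without responder replicate 2; and 3 without untreated replicate 7 or non-responder replicate 7.

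The 3 responders lay below every untreated tumour in some of these genes, among them most of those named above, but none passed the test. With limma, 0 of 39 members passed, beside 0.0755% of all genes, and 15 (38.5%) had an unadjusted p under 0.05, beside 16.1% of all genes. In 10 members all 3 responders lay below all 7 untreated tumours, and in Cenpt all 3 lay above them, beside 3.27% and 3.77% of all genes on those sides. The 10 were Nsl1, Cenpk, Incenp, Cenpc1, Hjurp, Cenpi, Spc24, Cenpq, Cenph and Bub1b. Nsl1 had values of 1.37, 0.90 and 1.40 in responders 1 to 3 against 1.84 or more in untreated tumours, and a difference of -1.24 ± 0.27 (limma adjusted p = 0.0529). Cenpk had 0.11, 0.55 and 0.43 against 1.07 or more, a difference of -1.51 ± 0.37 (limma adjusted p = 0.0706). The median over the 39 genes was -0.41, with 31 negative (79.5%, beside 49.1% of all genes), and it lay between -0.47 and -0.32 when each tumour was left out in turn. The passing count rose to 4 without untreated replicate 1 and to 1 without untreated replicate 7. The 9 checkpoint genes had a median of -0.22, with 7 negative, and the 9 measured proliferation genes a median of -0.52, with 9 negative and 3 at an unadjusted p under 0.05. In the same 3 tumours, the 8 skeletal muscle markers all had positive differences from untreated tumours (median 1.71, 0 past the limma threshold, 7 with an unadjusted p under 0.05), and their part in these results was not tested.

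Responders and non-responders share the untreated controls, so the question of response rests on their direct comparison. There 0 of 39 members and 0 of 18553 genes (0%) passed with limma, and 2 members (5.13%, beside 6.33% of all genes) had an unadjusted p under 0.05. Spc25 was 0.75 ± 0.28 log2 units below the non-responders (limma adjusted p = 0.684), and the average of the Ndc80 spots was 0.62 ± 0.28 above (limma adjusted p = 0.733). The 2 Ndc80 spots pointed opposite ways: the one measured on all 19 arrays had means of 1.42 in responders and 1.57 in non-responders, and the one measured on 15 arrays had 1.80 and 0.16. Differences were negative for 30 of 39 members (76.9%), beside 51.1% of all genes, with a median of -0.21. All 9 measured proliferation genes were also negative in this comparison (median -0.40, 2 with an unadjusted p under 0.05), as were all 9 checkpoint genes (median -0.33), while all 8 skeletal muscle markers were positive (median 1.21, 6 with an unadjusted p under 0.05). None of these passed, and their part in the members' values was not tested. Bub1 had the next smallest p, at -0.74 ± 0.37, with 1.27 to 2.03 in non-responders and 0.70, 0.78 and 1.28 in responders. The standard errors of these differences ran from 0.18 to 0.45, so the failure to pass does not show that the groups were alike. All 3 responders were hyphen arrays, beside 2 of the 9 non-responders and 2 of the 7 untreated tumours. Response and title style therefore cannot be fully told apart.

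The mouse that gave both a responder and a non-responder tumour allowed a comparison within 1 animal, without replication. The responder tumour was lower in 20 of the 39 members and higher in 19, with a median of -0.03, beside 0.003 over all genes and 49.7% of them lower.

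Time on treatment could be compared in non-responders, between tumours of different mice and not within a tumour. After 2 weeks (n = 4) the median difference from untreated tumours was -0.26, and after 3 weeks (n = 5) it was -0.20. With a tumour left out these medians ran from -0.36 (without untreated replicate 7) to -0.17 (without untreated replicate 1) and from -0.34 (without non-responder replicate 8) to -0.17 (without non-responder replicate 4), so their order was not settled. No member passed with limma at either time, beside 0.0377% and 0% of all genes, and 9 and 13 members had an unadjusted p under 0.05 (23.1% and 33.3%, beside 14.5% and 11.9%). Sgo2a had -0.92 ± 0.26 after 2 weeks and -0.93 ± 0.24 after 3 weeks, and at both times all non-responders lay below all untreated tumours, as in 1.49% and 0.717% of all genes. Nsl1 was also below without overlap after 2 weeks and Cenpc1 after 3 weeks, as were 1.49% and 0.717% of all genes. Cenpt was above without overlap after 2 weeks, as in 2.18% of all genes. Cenpk ran from 0.39 to 1.89 after 2 weeks and from -0.20 to 1.21 after 3 weeks, and Cenpt from 0.63 to 1.26 and from 0.42 to 1.05. Set directly against each other, the 2 times differed by a median of -0.02 over the members (-0.06 over all genes). No member passed with limma, beside 0.00539% of all genes, and 0 had an unadjusted p under 0.05, beside 4.1%.

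The members varied together across tumours to different degrees. After group means were subtracted, each gene was correlated with the mean of the other members over the 19 tumours, which share their arrays and the reference, and the values are given as a description. The same correlation was not computed over all genes, so no background share stands beside the counts. Pearson's r was above 0 in 36 of 39 members and above 0.5 in 17, with a median of 0.42. It was highest for Cenph (r = 0.80, Spearman's rho = 0.80, r = 0.70 without the 2 tumours farthest from the median), Sgo2a (0.76, 0.84 and 0.71) and Cenpe (0.76, 0.73 and 0.71). It was lowest for Bub3 (-0.17, -0.25 and -0.37), an average of 4 spots with treated differences on both sides of 0. Among the 9 measured proliferation genes, r was lowest for Foxm1 at 0.05 (rho 0.16, and 0.16 without the 2). The highest was 0.81 for Cdk1, the main mitotic kinase (rho 0.79, and 0.69 without the 2). Mki67 had 0.34 (rho 0.35, and 0.43 without the 2) and Top2a 0.45 (rho 0.48, and 0.29 without the 2).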

How the data were processed

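RNA of 19 mouse mammary tumours was hybridised in Cy5 against a whole-mouse reference in Cy3 on 2-colour arrays, per the labels. The values are ratios on a log2 scale, 1 per spot, as the authors deposited them; the log base was inferred from the values, and the normalization, scanner and filters were not given in the sources used here. Of 45220 spots, 738 to 4115 (1.63% to 9.10%) per array were exactly 0, against at most 310 at any other value, and were taken as missing. Array medians lay between -0.081 and 0.009. The platform annotation gave 1 gene to 33653 spots, several to 56 and none to 11511, and only the first kind was used. A spot was kept when at least 70% of arrays measured it, and a gene's spots were averaged, leaving 18553 genes and 66 of 67 member spots.

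Groups were compared in two-sided tests of limma 3.58.1 (R 4.3.3; lmFit, then eBayes), with Benjamini-Hochberg adjustment over all genes and a threshold of 0.05: treated against untreated tumours in a fit of 2 groups, response in a fit of 3 and weeks in a fit of 5, 7 comparisons in all. The step was tested on simulated data. Mouse numbers in the titles differ except for the pair from 1 mouse, which was treated as independent. The number of arrays limits the precision. Members, roles, lists and tests were chosen with earlier results of these data known. Genes named in detail were those that passed in any comparison, the 2 with the smallest treated p in each role, the 3 highest and 3 lowest in untreated tumours, and Cenpa, Ndc80, Aurkb and Bub1; others are named as context. Promoter windows and motifs were read with Python 3.11.15. Other settings for zeros, filters, spots, normalization, title style and tumours left out are given in the closing section.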

Additional observations from a re-analysis of the deposited data

Results flagged for a closer look

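In 4 of 78 groups of member values a single tumour stood far from the others of its group by Dixon's test, about the 1 in 20 that chance gives. Cenpo, a CCAN gene, was at 1.73 in non-responder replicate 1, where the nearest of the other 8 non-responders was at 0.71 and the group median at 0.41. Spc25 and Zw10, a subunit of the RZZ checkpoint complex, were at -0.68 and -0.58 in non-responder replicate 2, with the nearest values at 0.18 and 0.41 and medians of 0.39 and 0.64. Mis12 was at 2.30 in untreated replicate 1, with the nearest of the 7 at 1.23 and a median of 0.83. None of these 4 genes passed in any comparison.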

How the results depend on the processing

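Between treated and untreated tumours, 10 members passed. The count was 4 with the most variable spot of each gene, 0 within the hyphen arrays and 0 within the arrays without a hyphen. Other settings also cost some genes the call. Over 11 alternatives, these 3 among them, Cenpe lost it in 6 and Hjurp, Incenp, Sgo2a and Spc24 in 4 each. Cenpk lost it in 3, and Cenpi, Cenpq, Cenpt and Nsl1 in 2 each. Leaving out 1 tumour at a time gave 4 to 11: 4 without untreated replicate 4, 5 without untreated replicate 2 or 6, and 6 without untreated replicate 5 or responder replicate 1. Over those 19 fits Cenpi, Cenpk, Cenpt and Nsl1 lost the call in 0, Sgo2a in 1, Cenpq in 3, Hjurp in 6, Incenp in 12, Cenpe in 13 and Spc24 in 15. No direction of the 10 turned in any alternative. The 5 members that passed between non-responders and untreated tumours became 8 with only spots measured on every array, 3 after quantile normalization, 0 with the most variable spot, 0 within hyphen arrays and 0 within the others, and 0 to 7 with a tumour left out. Alternatives added after seeing the data concerned the 5 arrays with under 5% of spots at 0 (3 non-responders, 1 responder and 1 untreated tumour): with these as a covariate 0 members passed in non-responders, and without them 1. Responders against untreated tumours gave 4 members with only spots measured on every array, and 0 to 4 with a tumour left out. In the other 4 comparisons 0 members passed with each tumour left out. The cause was not tested. The median between 3 and 2 weeks, -0.02, ran from -0.17 to 0.06 with a tumour left out. No paired analysis was possible because replicate numbers only follow accession order. The mouse as a random block was not run, since 1 mouse alone gave 2 tumours. Signal over background was not used here.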
